A study of Mus musculus with 24 samples.

Results

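The genes described here handle iron and heme in mouse alveolar macrophages, the phagocytes that live in the air spaces of the lung. They were chosen by name as 10 genes for iron storage, ferritin turnover, import, transport, export and heme breakdown, because asbestos fibres carry iron, and all 10 were found among the 43430 gene IDs of the table. They are Fth1, Ftl1, Ncoa4, Tfrc, Trf, Slc11a2, Slc11a1, Slc40a1, Hmox1 and Blvrb. The study held 24 RNA-seq libraries of sorted macrophages from C57BL/6J mice, 4 in each of 6 groups. Cells called Siglec F-high by the labels came from young naive, old naive, young asbestos and old asbestos mice, and Siglec F-low cells came from young asbestos and old asbestos mice. Young animals were 8 to 12 weeks old per their labels and old ones more than 18 months, while the series text named 2 and 18 months and put the asbestos groups 28 days after the fibres were given. Resident and monocyte-derived macrophages are named in the series text, but each sample is labelled by Siglec F alone, and the sorts are called by that label here. The controls were naive mice, and no vehicle group was analysed here, so the fibres and the procedure of giving them cannot be told apart.

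A macrophage takes up iron as transferrin bound to the transferrin receptor, and as heme and metal inside what it has eaten. Ferritin, a shell of heavy and light chains, stores the metal, and ferroportin is the only known exporter of the free metal. When iron in the cytosol is scarce, iron regulatory proteins bind a short hairpin in certain mRNAs, the iron responsive element. A hairpin before the coding sequence then holds back translation, whereas hairpins after it protect the mRNA from decay. Counts of mRNA therefore do not show the first kind of control. In the lung, alveolar macrophages are known to take up inhaled metal and to hold ferritin.

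The hairpins are shown because they sort the members into mRNAs under these opposite kinds of control. A search of the coding transcripts of GENCODE M21 (GRCm38, the mm10 assembly) asked for a bulged C, 5 bases, the loop CAGTGN and 5 bases that pair fully with those before the loop, G-T pairs allowed, with at least 3 of 5 further pairs below the bulge. Only the transcript strand was searched, and no other motif was sought. Such a stretch of 27 bases was found in 4 members at 7 places, against 95 of 21901 coding genes (0.434%) anywhere in a transcript. It lay in the 5' UTR in 9 genes (0.0411%) and in the 3' UTR in 36 (0.164%). A match describes the letters and is not a measured binding site. In the lines that follow, written 5' to 3' on the strand of the gene, capitals mark the bulged C and the loop.
Fth1, 5' UTR, chr19:9982733-9982759, plus strand: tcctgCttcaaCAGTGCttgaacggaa
Ftl1, 5' UTR, chr7:45459780-45459806, minus strand: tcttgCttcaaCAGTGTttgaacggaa
Slc40a1, 5' UTR, chr1:45925466-45925492, minus strand: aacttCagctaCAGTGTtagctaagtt
Tfrc, 3' UTR, chr16:32631220-32631246, plus strand: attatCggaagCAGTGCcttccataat
Tfrc, 3' UTR, chr16:32631599-32631625, plus strand: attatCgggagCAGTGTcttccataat
Tfrc, 3' UTR, chr16:32631664-32631690, plus strand: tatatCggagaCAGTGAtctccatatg
Tfrc, 3' UTR, chr16:32631711-32631737, plus strand: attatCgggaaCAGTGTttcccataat

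The storage genes and the exporter thus carried the hairpin before the coding sequence, and the transferrin receptor carried its hairpins after it. The searched transcripts of the other members held no match to this pattern. The pattern allowed no unpaired base in the upper stem, so hairpins of another shape would be missed. A member without a match is therefore not shown to lack such an element, and a member with matches may hold more.

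The libraries held 13423080 to 18124526 counts in 22 cases. The other 2 stood apart. Replicate 3 of young asbestos Siglec F-high held 11889517 counts on 12528 genes, against 17069 to 18820 genes in the 22, and its correlation with its group was 0.865, against 0.971 to 0.993. Replicate 3 of old asbestos Siglec F-high held 3894699 counts, of which Gm42418, a gene model within ribosomal RNA, took 35.6%, against 0.136 to 0.357% in the 22. Every test was therefore made on 24 libraries and again on the 22 without these. Levels are CPM, the counts relative to the library's total after scaling with TMM factors. Changes are log2 fold changes ± SE from edgeR, and "called" means an adjusted p under 0.05 over all genes tested. Siglecf averaged 534 ± 58.0 CPM in young naive and 500 ± 10.8 in old naive cells (SD, n = 4). In asbestos mice it averaged 420 ± 73.5 and 442 ± 47.8 CPM in the young and old Siglec F-high sorts. The young and old Siglec F-low sorts had 265 ± 27.4 and 173 ± 32.5 CPM. The 8 macrophage markers summed to 21780 to 38500 CPM in the 22 libraries. The 9 erythroid markers, a possible source of heme genes, summed to 0.335 to 6.30 CPM there and to 26.6 CPM in young asbestos Siglec F-high replicate 3, and Slc4a1 had no counts in any group other than young asbestos Siglec F-low. The 4 hepatocyte markers, a possible source of Trf, summed to at most 0.437 CPM in any library.

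Per kilobase of exon, ferritin stood far above the other members in every group. In young naive cells Ftl1, the ferritin light chain, had 2608 ± 411 CPM per kilobase and Fth1, the heavy chain, 1848 ± 367 (SD, n = 4). These neighbours overlapped there, and with the length of the principal transcript in place of all exons their order turned. Trf and Hmox1 followed at 82.3 ± 13 and 82.1 ± 10.1 CPM per kilobase, and did not differ beyond their spread. Blvrb and Ncoa4 came next at 15.9 ± 2.66 and 14.4 ± 1.85, also overlapping. Slc11a2 and Tfrc overlapped at 3.07 ± 0.105 and 2.6 ± 0.364 CPM per kilobase, Slc11a1 had 1.21 ± 0.292, and Slc40a1 was last at 0.556 ± 0.0567. In old asbestos Siglec F-low cells the lower end of this order had moved. Slc11a1 stood there at 18.3 ± 4.16 CPM per kilobase, overlapping Ncoa4 at 14.7 ± 0.289, and Tfrc had 13.6 ± 6.11. Slc40a1 kept the last place in every group. Fth1 and Ftl1 together took 0.952 to 1.89% of all counts in the 22 libraries.

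**Figure D1:**
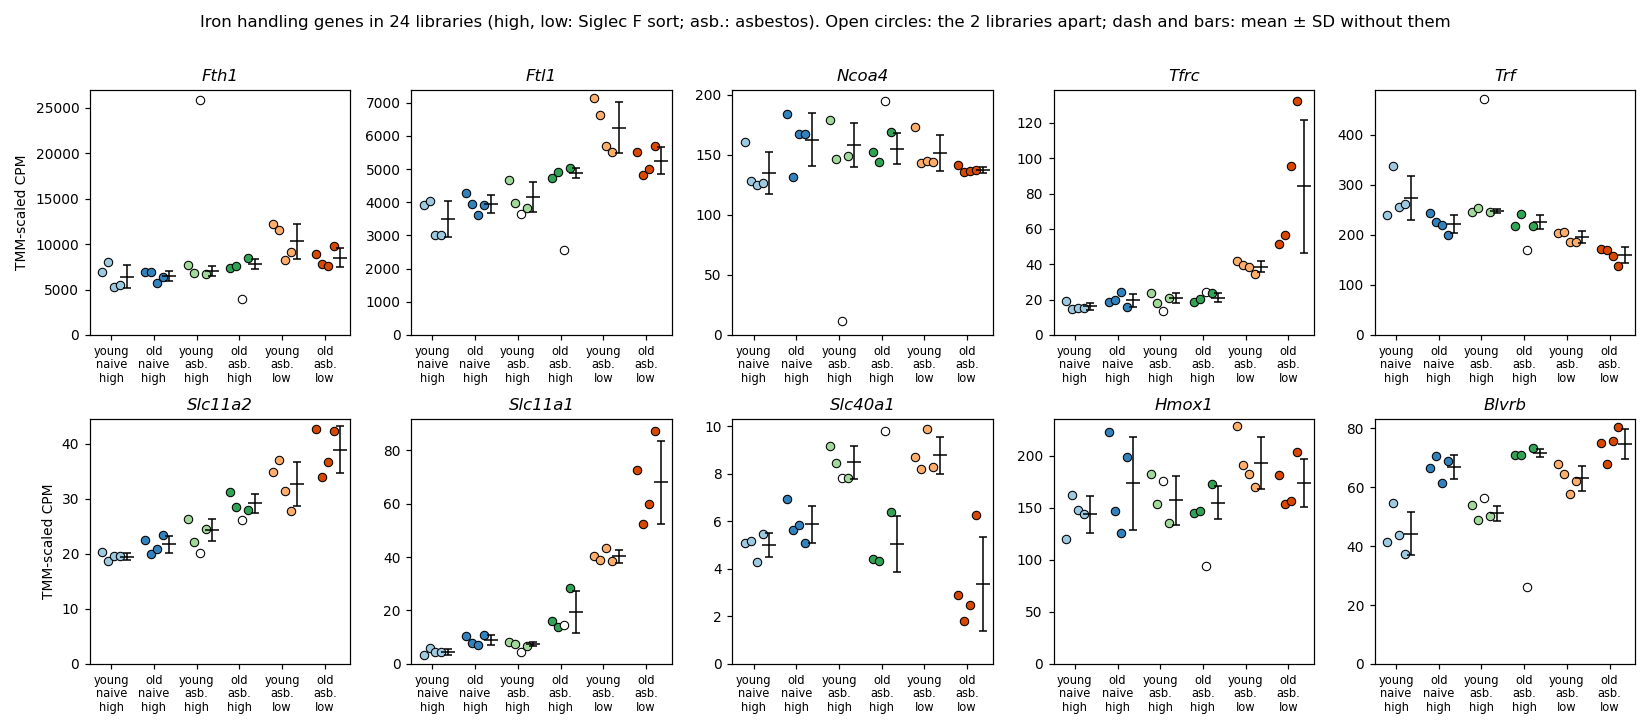
Each panel plots 1 gene, with TMM-scaled CPM on a linear axis from 0 and the 6 groups side by side; points are libraries, open circles the 2 libraries that stood apart, and the dash with bars the mean ± SD without them. Slc11a1 climbs from 3.29 to 5.92 CPM in young naive cells to 52.2 to 87.3 in old asbestos Siglec F-low cells, Tfrc is highest in the Siglec F-low sorts, and Slc40a1 is lowest in the old one.

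More of these genes were called between the sorts than with age or asbestos. Between the Siglec F sorts of young asbestos mice 5 of 10 members were called with 24 libraries, where 4.99% of all 13467 tested genes were, and 7 of 10 with 22 libraries, where 12.0% of 13629 were. Between the sorts of old asbestos mice 3 of 10 were called with 24 libraries (4.30% of all genes) and 4 of 10 with 22 (11.6%). With age, in naive cells 1 member was called with 24 libraries (2.03% of all genes) and 3 with 22 (8.03%), in asbestos Siglec F-high cells 1 (4.76%) and 2 (7.32%), and in asbestos Siglec F-low cells 2 (1.29%) and 3 (7.21%). Asbestos against naive gave no call in young Siglec F-high cells with either set of libraries, where 1.90% and 5.06% of all genes were called. By edgeR 4 members had an unadjusted p under 0.05 there with 24 libraries and 6 with 22, DESeq2 called 0 and 2, and limma voom called 5. In old Siglec F-high cells asbestos gave 1 call (0.780% of all genes) and 2 (4.12%). The median change of the 10 members was 0.29 in each sort comparison with 24 libraries and between -0.14 and 0.25 in the other comparisons of 2 groups, while the median of all genes lay between -0.01 and 0.04. Comparisons that share a group of libraries are not independent of each other. All changes here are of bulk RNA, in which fewer cells of a type and less RNA per cell cannot be told apart.

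**Figure D2:**
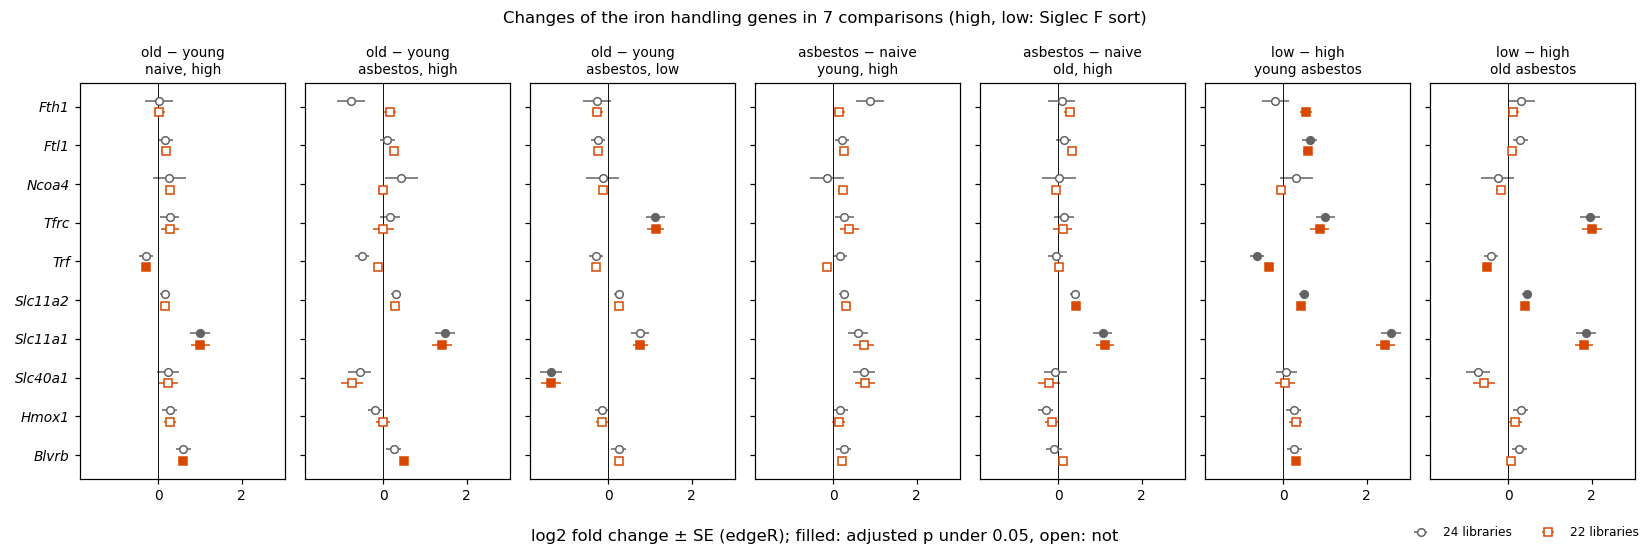
Each panel plots the log2 fold change ± SE of the 10 genes in 1 of the 7 comparisons, with grey circles for 24 libraries, orange squares for 22 and filled symbols for calls at an adjusted p under 0.05. Slc11a1 and Tfrc lie far to the right in the sort comparisons, Slc40a1 lies to the left at -1.37 in old against young Siglec F-low cells, and the Fth1 symbols of the 2 fits part where young asbestos Siglec F-high cells enter.

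Among the storage genes, Ftl1 was higher in the Siglec F-low sort of young mice, and Fth1 was when 22 libraries were fitted. Ftl1 (ENSMUSG00000050708, chr7:45457944-45459884, minus strand) makes the light chain that helps iron form its mineral core. It had 4666, 3986, 3643 and 3820 CPM in the young asbestos Siglec F-high libraries and 7146, 6633, 5690 and 5521 CPM in the Siglec F-low ones. All 4 Siglec F-low libraries were above all 4 Siglec F-high ones. The log2 difference was 0.63 ± 0.18 with 24 libraries (edgeR adjusted p = 0.038) and 0.59 ± 0.11 with 22 (edgeR adjusted p = 0.00085). The call with 24 libraries held in 22 of 34 alternatives. It was lost without young naive replicate 3 or 4, young asbestos Siglec F-high replicate 2, 3 or 4, young asbestos Siglec F-low replicate 1, 2 or 3, or old asbestos Siglec F-low replicate 1 or 3. The difference stayed at 0.57 to 0.68 without these, with an edgeR adjusted p of at most 0.129. The call was also lost without a filter on low counts and with the compared groups fitted alone (edgeR adjusted p = 0.089 and 0.082). Between the old sorts Ftl1 had a difference of 0.29 ± 0.18 (edgeR adjusted p = 0.49) with 24 libraries and 0.10 ± 0.11 (0.67) with 22. Its 3 named copies in the table, Ftl1-ps1, Ftl1-ps2 and Ftl2-ps, held 544, 203 and 85 counts over all 24 libraries, and reads shared with them or with copies outside the table could not be followed.

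Fth1 (ENSMUSG00000024661, chr19:9980598-9985098, plus strand) makes the heavy chain, which oxidises iron as it enters the shell. The young asbestos Siglec F-high libraries had 7701, 6803, 25832 and 6683 CPM, and the Siglec F-low libraries 12174, 11575, 8279 and 9133 CPM. Replicate 3 of the first group alone decided the sign. With it the log2 difference of low against high was -0.19 ± 0.33 (edgeR adjusted p = 0.78), and with 22 libraries it was 0.54 ± 0.14 (edgeR adjusted p = 0.012). Without that library alone Fth1 had 0.54 and was not called (edgeR adjusted p = 0.131), so the edgeR call needed the other library left out too. In that library Fth1 had 7.09 counts per count of Ftl1, while in the 22 libraries this ratio ran only from 1.46 to 1.98. Its heavy chain level was thus out of step with its own light chain level. In old mice Fth1 had 0.31 ± 0.33 with 24 libraries (edgeR adjusted p = 0.77) and 0.12 ± 0.14 with 22 (edgeR adjusted p = 0.68) between the sorts. No age or asbestos comparison called either ferritin chain by edgeR, with 24 libraries or with 22. Limma voom with 24 libraries called Ftl1 higher after asbestos in young Siglec F-high cells, at 0.35.

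Ncoa4 (ENSMUSG00000056234, chr14:32159865-32179855, plus strand), the receptor that carries ferritin to lysosomes, was not called in any comparison by either edgeR fit. Its group means with the 22 libraries ran from 135 ± 17.3 CPM in young naive (SD, n = 4) to 162 ± 22.1 CPM in old naive cells (SD, n = 4). The old Siglec F-low libraries were close together at 141, 135, 136 and 137 CPM. Replicate 3 of young asbestos Siglec F-high, high for Fth1, held only 11.2 CPM of Ncoa4, against 147 to 179 CPM in the rest of its group.

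The mRNA of the transferrin receptor separated the sorts. Tfrc (ENSMUSG00000022797, chr16:32608920-32632794, plus strand) takes up transferrin with its iron. It had 18.6, 20.6, 24.5 and 23.7 CPM in old asbestos Siglec F-high libraries, and 51.6, 56.7, 95.8 and 132.5 CPM in old asbestos Siglec F-low ones. The groups did not overlap, and the Siglec F-low libraries were spread widely. Tfrc was higher by 1.97 ± 0.24 on the log2 scale (edgeR adjusted p = 2.8e-05), a value of 2.00 ± 0.24 in the fit of 22 libraries (edgeR adjusted p = 4.3e-06). In young mice it had 24, 18.3, 13.5 and 21.1 CPM in Siglec F-high libraries and 41.9, 39.5, 38.4 and 34.7 in Siglec F-low ones, again without overlap. That difference was 1.0 ± 0.23 (edgeR adjusted p = 0.0099), and 0.87 ± 0.23 with 22 libraries (edgeR adjusted p = 0.014). Both sort calls of Tfrc held in all 34 alternatives.

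Within the Siglec F-low sort Tfrc was also higher with age. All 4 old libraries were above the highest young library, 41.9 CPM, and the means were 84.2 ± 37.8 against 38.6 ± 3.04 CPM (SD, n = 4). The log2 difference was 1.12 ± 0.23 (edgeR adjusted p = 0.011), and 1.13 ± 0.20 with 22 libraries (edgeR adjusted p = 0.0011). Without old asbestos Siglec F-low replicate 4, the highest library, it was 0.82 with an edgeR adjusted p of 0.057. In Siglec F-high cells no age or asbestos difference of Tfrc was called, and its group means there with 24 libraries lay between 16.1 ± 2.25 and 21.9 ± 2.75 CPM (SD, n = 4).

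The sum of the T cell markers was higher in the Siglec F-low sort as well. Their 6 genes summed to 43.6 to 98.4 CPM in Siglec F-low libraries and to 14.1 to 34.6 in Siglec F-high ones. The sum was carried by Il7r, at a mean of 50.1 and 66.3 CPM in the young and old Siglec F-low sorts, while Cd3e had 2.74 and 1.72 CPM there against 2.6 and 2.63 in the young and old asbestos Siglec F-high sorts. By edgeR 1 of the 6 was called higher and 0 lower between the sorts at each age, with 24 libraries and with 22. The part of T cells in the differences of Tfrc, Slc11a1 and the ferritins was not tested.

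Trf (ENSMUSG00000032554, chr9:103204001-103230444, minus strand), the plasma iron carrier transferrin, was lower in the Siglec F-low sort of young mice, and in that of old mice with 22 libraries. In young mice it had 245, 253, 472 and 246 CPM in Siglec F-high libraries and 204, 206, 185 and 186 CPM in Siglec F-low ones. Every Siglec F-low library was below every Siglec F-high one, and replicate 3 of the latter stood far above its group. The change was -0.63 ± 0.17 with 24 libraries (edgeR adjusted p = 0.033) and -0.34 ± 0.10 with 22 (edgeR adjusted p = 0.022). The first call was lost without any 1 of the young asbestos Siglec F-low libraries, at -0.66 to -0.60, and without replicate 3 of young asbestos Siglec F-high, at -0.34, with an edgeR adjusted p of at most 0.107. It was also lost without a filter on low counts and with the compared groups fitted alone (edgeR adjusted p = 0.061 and 0.403). In old mice the difference was -0.41 ± 0.17 with 24 libraries (edgeR adjusted p = 0.23) and -0.51 ± 0.10 with 22 (edgeR adjusted p = 0.0011). Trf was also called lower in old naive than in young naive cells with 22 libraries, at -0.30 ± 0.09 (edgeR adjusted p = 0.046, and 0.78 with 24), and by limma voom with 24 at -0.24. Naive libraries overlapped for Trf, at 240, 337, 255 and 261 CPM in young and 243, 225, 220 and 200 CPM in old mice. In asbestos cells no old library reached a young one in either sort, where 9.42% and 12.9% of all genes did not overlap. Those differences with 24 libraries were -0.52 in the Siglec F-high and -0.30 in the Siglec F-low sort (edgeR adjusted p = 0.075 and 0.81). EdgeR called neither with 22 libraries. DESeq2 called the first with 24 libraries, as did edgeR without young asbestos Siglec F-high replicate 1, 2 or 4. Limma voom called the second with 24, at -0.27. Hepatocyte markers were at or near 0, as given above. The Trf exons overlap those of Gm20425, which held 11 counts in all.

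Slc11a1 (ENSMUSG00000026177, chr1:74375195-74386062, plus strand) differed more between the young sorts than any other member. It makes the metal transporter of the phagosome membrane. C57BL/6 mice are known to carry a loss-of-function allele of this gene, so its mRNA is measured here in a strain with little working protein. In young asbestos mice it had 8.04, 7.36, 4.54 and 6.67 CPM in Siglec F-high libraries and 40.2, 38.7, 43.5 and 38.4 CPM in Siglec F-low ones. In old asbestos mice it had 16.2, 13.7, 14.7 and 28.5 CPM, and 72.5, 52.2, 59.7 and 87.3 CPM. The sorts were far apart at both ages. Slc11a1 was higher in the Siglec F-low sort by 2.58 ± 0.24 in young mice (edgeR adjusted p = 4.1e-07) and by 1.86 ± 0.23 in old mice (edgeR adjusted p = 3.1e-05). With 22 libraries the values were 2.45 ± 0.23 and 1.81 ± 0.21, and both calls held in all 34 alternatives.

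Slc11a1 was higher with age too. Young naive libraries had 3.29, 5.92, 4.37 and 4.34 CPM and old naive ones 10.4, 7.69, 6.91 and 10.7 CPM, with no overlap. The difference was 1.0 ± 0.24 (edgeR adjusted p = 0.023), and 1.01 ± 0.23 with 22 libraries (edgeR adjusted p = 0.0061). With 24 libraries this call was lost without young naive replicate 1, 3 or 4 or old naive replicate 1 or 4, at 0.88 to 0.99 and an edgeR adjusted p of at most 0.099. In asbestos Siglec F-high cells the age difference was 1.47 ± 0.24 (edgeR adjusted p = 0.00059), and 1.40 ± 0.24 with 22 libraries (edgeR adjusted p = 0.00066). It lost its call only when those groups were fitted alone, at 1.43 and an edgeR adjusted p of 0.196. In Siglec F-low cells the age difference was 0.76 ± 0.22 with 24 libraries (edgeR adjusted p = 0.12) and 0.76 ± 0.18 with 22 (edgeR adjusted p = 0.010). It was also called without young asbestos Siglec F-high replicate 3 or old asbestos Siglec F-high replicate 4, at 0.76 in each case, and by DESeq2 and limma voom with 24 libraries, at 0.79 and 0.74.

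In old Siglec F-high cells the asbestos group had more Slc11a1 than the naive group, with a log2 difference of 1.06 ± 0.23 (edgeR adjusted p = 0.027), which was 1.12 ± 0.22 in 22 libraries (edgeR adjusted p = 0.0034). This call rested on few libraries. Without old asbestos Siglec F-high replicate 4, at 28.5 CPM the highest of its group, the difference was 0.74 with an edgeR adjusted p of 0.228. The call was also lost without old naive replicate 1, 2 or 3, at 0.96 to 1.15, and with these groups fitted alone, at 1.07 (edgeR adjusted p = 0.136). In young cells the asbestos difference was 0.59 ± 0.24 (edgeR adjusted p = 0.19). B cell markers went the other way. The 8 summed to 289 to 440 CPM in old naive and 199 to 273 CPM in old asbestos Siglec F-high libraries. In young ones they summed to 222 to 254 against 79.6 to 206 CPM. Without asbestos replicate 3, which stood apart, the latter sums were 192 to 206 CPM. By edgeR 0 of the 8 were lower after asbestos in old and 3 in young cells with 24 libraries, and 3 and 5 with 22. Their part in the asbestos differences was not tested.

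An immunoglobulin gene moved with age too. Ighm had 118 to 257 CPM in old naive and 30.2 to 46.4 CPM in young naive libraries, and the 8 B cell markers summed to 289 to 440 against 222 to 254 CPM. Cd79a, of the same list, averaged 8.14 CPM in old naive and 9.92 CPM in young naive cells. In asbestos Siglec F-low cells Ighm had 46.5 to 129 CPM in old and 14 to 35.2 CPM in young libraries, and the 8 markers summed to 227 to 328 against 211 to 238 CPM. In asbestos Siglec F-high cells the sums were 199 to 273 CPM in old and 79.6 to 206 CPM in young libraries. Without replicate 3, which stood apart, the young sums were 192 to 206 CPM. By edgeR 1 of the 8 was called higher and 0 lower in each age comparison, with 24 libraries and with 22. The part of B cells in the age differences of Slc11a1, Blvrb, Trf, Tfrc and Slc40a1 was not tested.

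Slc11a2 (ENSMUSG00000023030, chr15:100387898-100425072, minus strand), the paralog that passes iron out of endosomes, moved in the same sort comparisons by less. Young asbestos Siglec F-high libraries had 26.4, 22.2, 20.1 and 24.4 CPM and Siglec F-low ones 34.8, 37.0, 31.4 and 27.8 CPM. Old asbestos Siglec F-high libraries had 31.2, 28.5, 26.1 and 27.9 CPM and Siglec F-low ones 42.6, 34.0, 36.6 and 42.4 CPM. Neither pair of groups overlapped. The log2 differences were 0.49 ± 0.11 in young (edgeR adjusted p = 0.0096) and 0.44 ± 0.11 in old mice (edgeR adjusted p = 0.027), and 0.43 ± 0.10 and 0.41 ± 0.10 with 22 libraries, called in each case. The young call with 24 libraries was lost without young asbestos Siglec F-low replicate 2, at 0.43 and an edgeR adjusted p of 0.0501. It was also lost without a filter on low counts and with the compared groups fitted alone (edgeR adjusted p = 0.073 and 0.227). The old one was lost without old asbestos Siglec F-high replicate 2, 3 or 4 or old asbestos Siglec F-low replicate 1 or 4, at 0.40 to 0.45 and an edgeR adjusted p of at most 0.107. Without a filter on low counts it was lost as well (edgeR adjusted p = 0.131). In old Siglec F-high cells Slc11a2 had 0.40 ± 0.11 after asbestos with 24 libraries (edgeR adjusted p = 0.14) and was called at 0.43 ± 0.10 with 22 (edgeR adjusted p = 0.016). It was also called without young asbestos Siglec F-high replicate 3 alone, at 0.41, and by DESeq2 and limma voom with 24 libraries, at 0.42 and 0.43. The exons of Slc11a2 overlap those of Gm5475 on the other strand, which held 16 counts in all.

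Counts of Slc11a1 per count of Slc11a2, a ratio within each library, ran from 0.162 to 0.317 in young naive and from 1.54 to 2.06 in old asbestos Siglec F-low libraries. Over the 24 libraries Slc11a1 spanned 3.29 to 87.3 CPM and Slc11a2 18.6 to 42.6 CPM.

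The mRNA of the exporter went the other way with age in the Siglec F-low sort. Slc40a1 (ENSMUSG00000025993, chr1:45908068-45926523, minus strand) makes ferroportin. In asbestos Siglec F-low cells it had 8.70, 8.21, 9.86 and 8.28 CPM in young mice and 2.90, 1.83, 2.48 and 6.26 CPM in old mice. No old library reached the lowest young one, and old replicate 4 stood well above the rest of its group. Slc40a1 was lower in old mice, with a log2 change of -1.37 ± 0.27 (edgeR adjusted p = 0.0085), and with 22 libraries the change was -1.36 ± 0.24 (edgeR adjusted p = 0.00078). This call held in all 34 alternatives, at -1.86 to -1.17. In asbestos Siglec F-high cells the change with age was -0.57 ± 0.28 (edgeR adjusted p = 0.20), and -0.74 ± 0.27 with 22 libraries (edgeR adjusted p = 0.096).

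Between the old sorts Slc40a1 had -0.73 ± 0.29 (edgeR adjusted p = 0.19), and without old asbestos Siglec F-low replicate 4 it was called at -1.21 (edgeR adjusted p = 0.0046). In young mice the sorts differed by 0.07 ± 0.26 (edgeR adjusted p = 0.90). After asbestos, young Siglec F-high libraries had 9.16, 8.45, 7.83 and 7.80 CPM, all above the young naive ones at 5.10, 5.16, 4.28 and 5.47 CPM. That difference was 0.73 ± 0.26 and did not pass the threshold by edgeR (edgeR adjusted p = 0.15, and 0.074 with 22 libraries). Limma voom with 24 libraries called it at 0.82, and DESeq2 on 22 libraries at 0.76.

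The mRNAs of importer and exporter therefore differed with age in opposite directions within the Siglec F-low sort. A ratio of their counts was taken after these values were seen, and it is given as a description only. Counts of Tfrc per count of Slc40a1 were 17.8 to 38.7 in the old asbestos Siglec F-low libraries, and 1.73 to 4.82 in all 20 others. The old Siglec F-low libraries with the highest Tfrc did not have the lowest Slc40a1, since replicate 4 had the most of both.

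**Figure D3:**
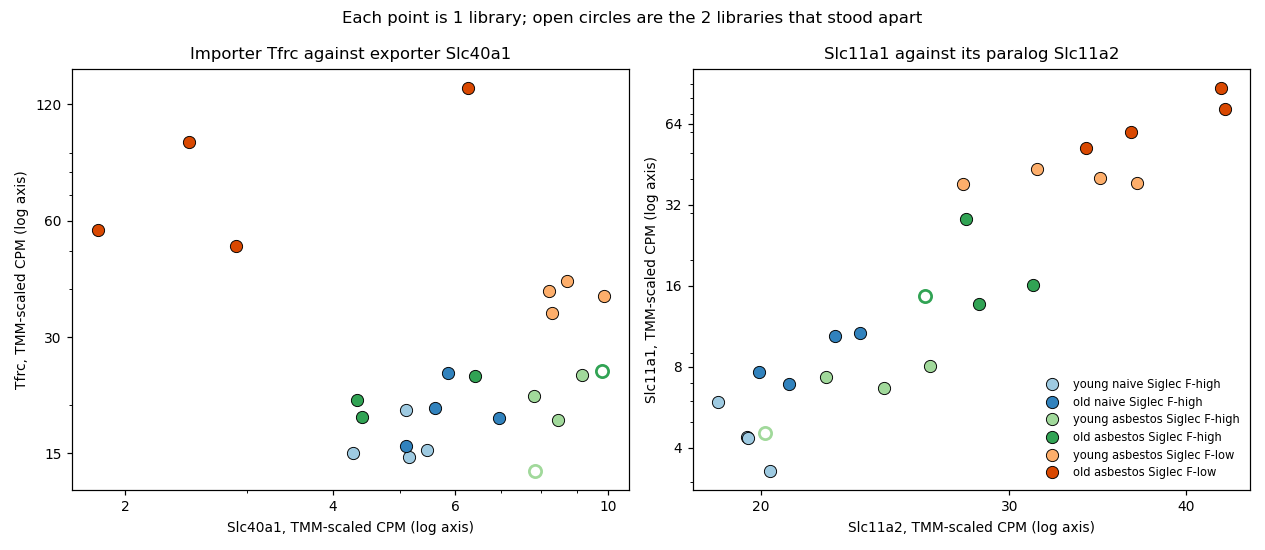
Each point is 1 library, in TMM-scaled CPM on log axes, coloured by group, with open circles for the 2 libraries that stood apart. On the left Tfrc is plotted against Slc40a1, and the 4 old asbestos Siglec F-low libraries lie above all others, 3 of them also to the left of all others; on the right Slc11a1 is plotted against Slc11a2, and the groups spread from young naive at the lower left to old asbestos Siglec F-low at the upper right.

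Among the genes that break down heme, Hmox1 (ENSMUSG00000005413, chr8:75093621-75100589, plus strand), the inducible heme oxygenase that frees iron from heme, was not called in any comparison by either edgeR fit. Its group means with 24 libraries ran from 140 ± 33.1 CPM in old asbestos Siglec F-high to 193 ± 25.0 CPM in young asbestos Siglec F-low cells (SD, n = 4). Old naive libraries were spread from 126 to 222 CPM, which covered every other group mean. After asbestos Hmox1 had 0.17 ± 0.18 in young (edgeR adjusted p = 0.60) and -0.30 ± 0.18 in old Siglec F-high cells (edgeR adjusted p = 0.73).

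Blvrb (ENSMUSG00000040466, chr7:27447978-27466144, plus strand), a biliverdin and flavin reductase downstream of heme oxygenase, gave calls that depended on the libraries and the test. In naive cells it had 41.3, 54.6, 43.8 and 37.3 CPM in young and 66.4, 70.6, 61.4 and 68.9 CPM in old libraries. The groups did not overlap. The age difference was 0.59 ± 0.18 with 24 libraries (edgeR adjusted p = 0.12) and was called at 0.60 ± 0.09 with 22 (edgeR adjusted p = 7.9e-05). It was called as well when either replicate 3 that stood apart was left out alone, at 0.59 and 0.60. With all 24 libraries DESeq2 and limma voom called it, at 0.60 and 0.66, and so did edgeR on these groups alone, at 0.59. In asbestos Siglec F-high cells the age difference was 0.24 ± 0.18 (edgeR adjusted p = 0.41) and 0.50 ± 0.10 with 22 libraries (edgeR adjusted p = 0.0033). There old replicate 3 had 26.1 CPM against 70.8, 70.8 and 73.2 CPM in the rest of its group, and without it alone Blvrb was called at 0.46, as it was by limma voom with 24 libraries at 0.49. Between the young sorts Blvrb was called with 22 libraries at 0.30 ± 0.10 (edgeR adjusted p = 0.041), and by limma voom with 24 at 0.29.

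Whether age changed the response to asbestos or the difference between the sorts was tested directly. No member was called in either interaction, by edgeR or DESeq2 with 24 libraries or with 22, or by limma voom with 24. Of all genes 0.00% were called in each interaction with 24 libraries and 0.0147% with 22. By edgeR with 24 libraries 1 member had an unadjusted p under 0.05 in the first interaction and 3 in the second. The sort difference of Tfrc was larger in old mice by 0.96 ± 0.33 (edgeR adjusted p = 0.76) and that of Slc11a1 smaller, at -0.72 ± 0.32 (edgeR adjusted p = 0.76). The asbestos difference of Slc40a1 was lower in old mice, at -0.80 ± 0.38 (edgeR adjusted p = 0.59). None of these passed, so the sort or asbestos differences of these genes are not shown to depend on age.

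A wider list of 64 iron and heme genes, chosen by role, gave the surroundings of the members, and 46 of them were tested with 24 libraries and 47 with 22. Between the young sorts 3 were higher and 0 lower with 24 libraries, where 4.99% of all genes were called, and 9 and 1 with 22, where 12.0% were. Between the old sorts the counts were 2 and 0 (4.30% of all genes), and 6 and 1 with 22 libraries (11.6%). With age in naive cells 1 was higher and 0 lower (2.03%), and 5 and 1 with 22 libraries (8.03%). With age in asbestos Siglec F-high cells 1 was higher and 2 lower (4.76%), and 4 and 2 with 22 libraries (7.32%). With age in asbestos Siglec F-low cells the counts were 0 and 0 (1.29%), and 3 and 4 with 22 libraries (7.21%). After asbestos 2 were higher and 0 lower in young Siglec F-high cells (1.90%), and 3 and 0 with 22 libraries (5.06%). In old ones the counts were 0 and 0 (0.780%), and 6 and 0 with 22 libraries (4.12%). Several of these counts are near the share of all genes, and nothing is read from them about the list. No gene of the wider list was called in an interaction with either set. The median change of the list lay between 0.02 and 0.12 in the 7 comparisons with 24 libraries, beside -0.01 to 0.04 for all genes.

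Among the genes of heme and porphyrin transport, Flvcr1 and Abcg2 were called with 24 libraries. Flvcr1, a heme exporter, had 21.6 ± 0.94 and 35.7 ± 4.68 CPM in the young Siglec F-high and Siglec F-low sorts (SD, n = 4), and was higher in the latter by 0.73 ± 0.13 (edgeR adjusted p = 0.0011). In old mice it was higher by 0.66 ± 0.13 (edgeR adjusted p = 0.0041). Abcg2, which carries porphyrins out of cells, had 10.7 ± 2.07 CPM in young naive, 19.4 ± 1.73 in old naive, 21 ± 3.71 in young asbestos Siglec F-high and 45.2 ± 7.03 CPM in young asbestos Siglec F-low cells (SD, n = 4). Each step was called, at 0.85 ± 0.18 with age in naive cells, 0.96 ± 0.18 after asbestos and 1.11 ± 0.18 between the young sorts (edgeR adjusted p = 0.011, 0.0054 and 0.00051).

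Among regulators, Epas1, a hypoxia-inducible transcription factor that acts on iron genes, was higher after asbestos in young Siglec F-high cells by 1.29 ± 0.29 (edgeR adjusted p = 0.022). Fbxl5, the iron-sensing part of a ubiquitin ligase that degrades an iron regulatory protein, was lower with age in asbestos Siglec F-high cells, at -0.42 ± 0.11 (edgeR adjusted p = 0.033). With 22 libraries Fbxl5 was lower in old mice in all 3 age comparisons, at -0.31 ± 0.08 in naive, -0.46 ± 0.09 in asbestos Siglec F-high and -0.38 ± 0.07 in asbestos Siglec F-low cells (edgeR adjusted p = 0.012, 0.0018 and 0.0023). Its means were 172 ± 9.88 against 138 ± 7.55 CPM in naive and 260 ± 25.3 against 199 ± 16.6 CPM in Siglec F-low cells, young against old (SD, n = 4). Cpox, an enzyme of heme synthesis, was lower with age in asbestos Siglec F-high cells, at -0.86 ± 0.16 with 24 libraries and -0.52 ± 0.08 with 22 (edgeR adjusted p = 0.0025 and 0.00030). Steap3, the endosomal ferrireductase that works beside Tfrc and Slc11a2, was called by edgeR in 4 comparisons with 22 libraries and in 0 with 24. With 22 it was higher by 1.19 ± 0.22 between the young sorts, 0.79 ± 0.21 between the old sorts, 1.08 ± 0.22 after asbestos in old Siglec F-high cells and 0.78 ± 0.23 with age in asbestos Siglec F-high cells (edgeR adjusted p = 0.00071, 0.014, 0.0050 and 0.043).

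Lcn2 and Hp, which bind siderophores and free hemoglobin, were at low levels, with higher means in old than in young naive cells. In naive cells Lcn2 had 0.180 ± 0.122 CPM in young and 0.83 ± 0.0411 CPM in old libraries (SD, n = 4). It lay near the filter on low counts, and no young library exceeded 0.607 CPM. No test of Lcn2 is therefore given, and nothing is read from its place in the counts of the wider list. With 22 libraries Hp was called in naive cells at 1.74 ± 0.40 (edgeR adjusted p = 0.0066), from 1.14 ± 0.55 CPM in young to 3.78 ± 1.20 CPM in old (SD, n = 4). With 24 libraries edgeR did not call it there. Neutrophils are known to hold both, and the 9 neutrophil markers summed to 34.4 to 59.7 CPM in young naive and 30.7 to 42.2 in old naive libraries, with Ly6g at 0 in both groups. By edgeR with 22 libraries 1 of the 4 tested markers was called higher and 1 lower in old naive cells. The part of neutrophils in these differences was not tested.

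Hamp, the gene of hepcidin, the peptide that binds ferroportin and has it degraded, was near the detection limit. It had 16, 8, 14 and 16 raw counts in the old asbestos Siglec F-low libraries and 5, 3, 3 and 6 in the young ones. The 16 Siglec F-high libraries held 0 to 2 counts each. With 22 libraries Hamp passed the filter on low counts only through the old Siglec F-low group, so no test of it is given, and no fold against groups with so few counts. With 22 libraries the counts of the wider list include Hamp as higher between the old sorts and with age in Siglec F-low cells. Because of the filter, nothing is read from its place in those counts.

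The genes whose log2 CPM followed a member most closely over the 22 libraries were ranked by Pearson r as a description, since these libraries share groups. Fth1 was followed by Atp6v1d (r = 0.967), Ftl1 (0.954) and Cd53 (0.951). For Tfrc they were Sestd1 (0.945), Ivd (0.934) and Mgam (0.934). Slc40a1 and Hmox1 had looser followers, with Mcm10 (0.784), Dlgap5 (0.777) and Suv39h1 (0.767) for the first and Pofut2 (0.791), Ik (0.778) and Clec4d (0.775) for the second.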

How the data were processed

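RNA-seq of sorted mouse alveolar macrophages was measured in 24 libraries. The authors deposited 1 table of whole-number counts per Ensembl gene, unscaled. Per the submitters' processing notes the tools were bcl2fastq 2.19.1, FastQC, Trimmomatic 0.36, STAR 2.6.0 and HTSeq 0.11.2 with mm10. The annotation release and strand setting are not given in the sources used here. The library kit named in the labels' protocols does not mark strand. All 24 columns matched a sample by title, with 0 columns left over. Symbols and positions came from GENCODE M21 on GRCm38 by gene ID, and 42462 IDs matched.

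Genes were kept with filterByExpr (minimum count 10, minimum total 15), scaled with TMM factors and tested by edgeR's quasi-likelihood F test (version 4.0.16, under R 4.3.3) with a term for each group, over 7 comparisons and 2 interactions, with Benjamini-Hochberg adjustment over all genes tested. All 10 members passed the filter. The SE is the absolute log2 fold change divided by the square root of F, and log2 CPM for likeness used a prior count of 2. The fit was also run on simulated counts with the same spread for every gene and means taken from the 22 libraries. That run cannot show how the 2 libraries that stood apart act on the fit, and nothing is read from it. DESeq2 1.42.0 and voom of limma 3.58.1 served as alternatives. Depth was 3894699 to 18124526 counts per library.

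The members and gene lists were chosen with earlier results of these data known, and so were the 2 libraries left out of the second fit. All members are named. From the wider list the text names, per comparison, at most 3 higher and 3 lower called genes of smallest p. Of the 64 listed genes Hjv was not matched. Sums over marker lists include genes that are not reported here. The labels do not say that replicates are separate animals, so p-values measure the spread between these libraries, which may be technical in part. No pair of libraries of a group agreed within sampling noise (chi-square per degree of freedom of 3.36 or more).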

Additional observations from a re-analysis of the deposited data

Results flagged for a closer look

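In 60 sets of 4 libraries, 1 per member and group, the highest or lowest library was set against the rest by the gap to its neighbour over the range of the set (Dixon's 95% critical value). Chance gives about 1 such library in 20 sets, and 8 were found. Of these, 4 lay in the libraries that stood apart by their totals. Fth1 had 25831.5 CPM in young asbestos Siglec F-high replicate 3, against 6683 to 7701 in the rest of the group, and Trf had 471.7 CPM there, against 244.8 to 252.7. In old asbestos Siglec F-high replicate 3, Ftl1 had 2563.5 CPM, against 4733 to 5024, and Blvrb had 26.1 CPM, against 70.8 to 73.2.

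The other 4 lay in libraries of usual depth. Slc11a1 had 28.5 CPM in old asbestos Siglec F-high replicate 4, against 13.7 to 16.2. Replicate 1 of young naive was high for Ncoa4, at 160.8 CPM against 124.7 to 128.3, and for Tfrc, at 19.5 CPM against 14.6 to 15.3. Ncoa4 had 173.4 CPM in young asbestos Siglec F-low replicate 1, against 143.0 to 144.5.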

How the results depend on the processing

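Of 720 member values under other normalizations, tests, filters, sets of libraries and the replicate block on 24 libraries, 678 kept their side of the threshold, 9 lost it, 31 gained it and 2 reversed. Under a replicate block and DESeq2 on 22 libraries, chosen after seeing the data, these numbers were 158, 0, 20 and 2 of 180. Leaving out 1 library gave 2118 unchanged, 31 lost, 11 gained and 0 reversed of 2160. All reversals were of Fth1 between the young sorts, at 0.54 with 22 libraries, 0.45 with limma voom, 0.61 with the replicate block on 22 libraries and 0.54 with DESeq2 on 22 libraries. With 22 libraries the members called with age were 3 in naive and 2 in asbestos Siglec F-high cells, and 2 after asbestos in old cells, and DESeq2 gave 2, 2 and 2. Limma voom gave 4, 4 and 6 with age in naive, asbestos Siglec F-high and Siglec F-low cells, and 5 and 2 after asbestos in young and old cells. Ncoa4 was among the 4 in naive cells, at 0.33. Without a filter on low counts 2 were called between the young sorts. With the compared groups fitted alone the counts were 2 and 0 with age in naive and asbestos Siglec F-high cells, 0 after asbestos in old cells and 2 between the young sorts. DESeq2 on 22 libraries gave 3, 2 and 5 with age and 2 and 2 after asbestos. The cause of these shifts was not tested. Leaving out 1 library gave 0 to 2, 1 to 2 and 1 to 3 calls with age in the 3 comparisons, 0 to 0 and 0 to 2 after asbestos, 2 to 5 and 2 to 4 between the sorts, and 0 in each interaction.

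Nothing in the labels pairs libraries by replicate number, and same-number correlations of deviations from the group means ran from -0.286 to 0.245, with no pair of groups above 0.1 throughout. With the replicate block on 24 libraries, the counts of calls were those of the fit without it, 5 and 3 between the sorts and 1, 1 and 2 with age, and Tfrc in Siglec F-low cells changed with age by 1.09. The block on 22 libraries gave 4, 2 and 4 with age and 2 after asbestos in old cells. The SE limits what could be seen, with a median over all genes of 0.24 in the 7 comparisons with 24 libraries and 0.13 to 0.15 with 22.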
